A study of Mus musculus with 12 samples.

Results

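Chemokines are small secreted proteins that direct the movement of leukocytes, and their receptors are G protein-coupled receptors on the surface of the responding cells. The family is named after the spacing of conserved cysteines, as CC or CXC ligands with CC or CXC receptors, while the atypical receptors bind chemokines and remove or transport them without the usual G protein signal. In the brain, microglia, the resident macrophages, are a source of several of these ligands, and monocytes, neutrophils and T cells that enter the tissue carry the receptors for them. The genes described here are the protein-coding mouse genes whose symbol starts with *Ccl*, *Cxcl*, *Ccr*, *Cxcr* or *Ackr* followed by a digit, without 2 members that are not reported. The rule took 61 gene records with 56 distinct symbols among the 55487 genes listed, and the 32 with at least 10 counts in at least 3 libraries are reported. They are 12 CC ligands, 9 CXC ligands, 6 CC receptors, 3 CXC receptors and 2 atypical receptors. Of the other 29, 15 were at 0 in every library, 10 had counts but never 10, and 4 (*Ackr1*, *Ccl17*, *Ccl28* and *Cxcr5*) had 10 counts in 1 or 2 libraries, with a highest count of 41.

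RNA was sequenced from cells taken from the papain-digested cerebral cortex with magnetic beads against CD11b, a surface protein of microglia, border macrophages, monocytes and neutrophils. Of the 4 groups of 3 mice, 2 were WT mice of the C57BL/6J strain and 2 were *App* NL-G-F knock-in mice (abbreviated as *App* mice), whose humanized *App* gene carries the Swedish, Arctic and Iberian mutations at its own locus without a transgene promoter. The labels call the *App* mice male, and the authors report that the experiment used male mice. From 9 months of age each strain received 24 intravenous injections over 12 weeks, either of PBS as the vehicle (veh) or of 10 mg/kg of rh Bri2 BRICHOS R221E, a recombinant chaperone domain of the human Bri2 protein, and was then left for 4 weeks without treatment. Every group was injected and every brain digested, so injection and digestion are shared by the controls. Total counts were between 12433402 and 17889654 per library, and 3 counts, taken as the detection limit, corresponded to 0.168 to 0.241 CPM, the counts of a gene scaled to a common library size. The microglia markers *P2ry12*, *Tmem119*, *Fcrls*, *Sall1*, *Siglech*, *Gpr34* and *Csf1r* summed to between 15810 and 17970 CPM in the 6 WT libraries and between 12600 and 13800 CPM in the 6 *App* libraries. Other cells were also present in amounts that differed between libraries. The 7 astrocyte markers summed to 418 to 764 CPM in WT mice, 4456, 3989 and 1386 CPM in veh-treated and 1864, 645 and 1226 CPM in BRICHOS-treated *App* mice, and the 7 neutrophil markers to 439, 353 and 35.5 CPM in veh-treated WT mice, 69.3, 255 and 409 CPM in BRICHOS-treated WT mice and 12.8 to 36.8 CPM in *App* mice. In bulk samples of this kind, fewer cells of a type and less RNA per cell cannot be told apart.

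The levels given are CPM scaled with TMM factors, and the log2 fold changes, given as estimate ± standard error (SE) with adjusted p-values, are from 1 edgeR quasi-likelihood fit over 15425 genes in all 12 libraries, in which a gene was called at an adjusted p-value under 0.05. All 32 genes passed its filter on low counts. Between veh-treated *App* and WT mice, 20 of the 32 were called, or 62.5%, beside 37.0% of all genes tested. Higher in *App* mice were 10, where 20.1% of all genes were called higher, and lower were 10, where 16.9% of all genes were called lower. Of the 9 CXC ligands 7 were higher and 1 lower, with a median log2 fold change of 1.77, of the 6 CC receptors 0 were higher and 4 lower, with a median of -0.81, and of the 12 CC ligands 2 were higher and 3 lower, with a median of -0.01. The median over all 15425 genes was -0.02 and over the 32 genes 0.08. The levels of 22 of the 32 did not overlap between these groups, nor did those of 7846 of the 15425 genes. *Cxcl5*, *Ccr3*, *Ccr1l1* and *Ackr4* reached 10 counts in libraries of 1 strain only, so that they were included through the strain in which they were high, and without these 4 there were 9 higher and 8 lower of 28 genes. Astrocyte markers were highest in veh-treated *App* mice 1 and 2, and 4 WT mice had the most neutrophil markers. Omitting either set left 1 mouse in a group, and fewer of all genes tested were then called under vehicle. Only log2 fold changes are therefore given for these fits, further below.

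**Figure D1:**
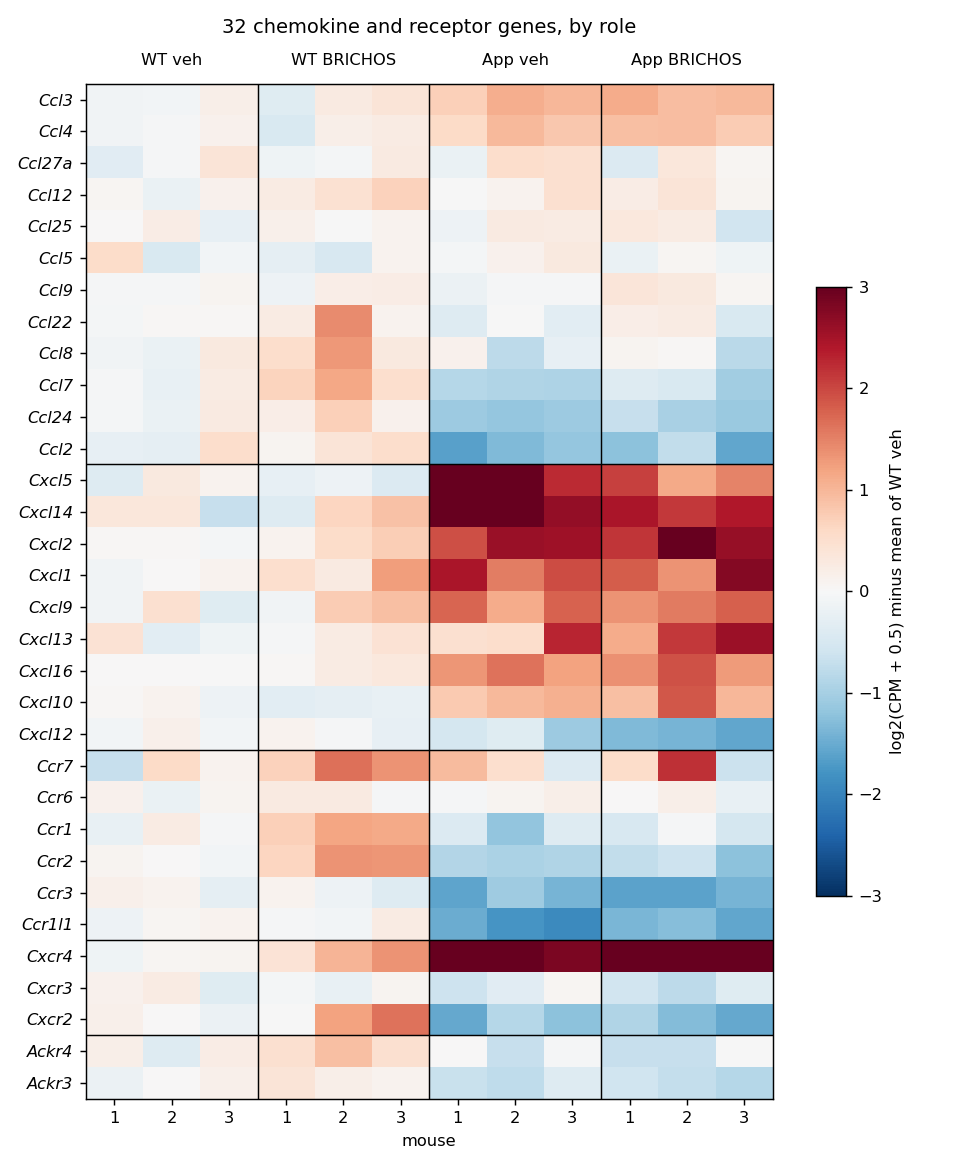
Level of the 32 genes in each of the 12 libraries, as log2(CPM + 0.5) minus the mean of the 3 veh-treated WT mice, ordered by class and, within a class, by the log2 fold change between the veh-treated strains. The CXC ligands other than *Cxcl12* are red and the CC receptors *Ccr2*, *Ccr3* and *Ccr1l1* blue in all 6 *App* libraries.

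Per transcript length, *Ccl3* and *Ccl4* were the leading genes of the family in both strains. They encode the chemokines known as MIP-1alpha and MIP-1beta, and lie beside each other on chromosome 11. Their mean level in veh-treated WT mice was 1388 and 1242 RPKM (the CPM per kilobase of exon), and in veh-treated *App* mice 2662 and 2144 RPKM, the 2 highest of the 32 in each. Together they took 64.8% to 75.8% of all counts on the 32 genes, which in turn made up 0.243% to 0.359% of a library in WT mice and 0.394% to 0.485% in *App* mice, 2 ranges that did not overlap.

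*Ccl3* (ENSMUSG00000000982, chr11:83647844-83649355) was measured at 989, 1006 and 1195 CPM in the veh-treated WT mice and at 1743, 2251 and 2122 CPM in the veh-treated *App* mice. Every *App* value was above every WT value. The log2 fold change was 0.94 ± 0.17 with an adjusted p of 0.00106. In the BRICHOS-treated mice the levels were 828, 1280 and 1377 CPM in WT and 2289, 2020 and 2092 CPM in *App* mice, again without overlap, although WT mouse 1 was well below the other WT mice, and the strains differed by 0.88 ± 0.17 (adjusted p = 0.0014). *Ccl4* (ENSMUSG00000018930, chr11:83662584-83664683) was also higher without overlap, with 767, 801 and 892 CPM in veh-treated WT and 1222, 1596 and 1427 CPM in veh-treated *App* mice. Its strain difference was 0.79 ± 0.16 under vehicle (adjusted p = 0.00242) and 0.85 ± 0.16 under BRICHOS (adjusted p = 0.00127), where the levels were 598, 924 and 967 CPM in WT and 1535, 1565 and 1382 CPM in *App* mice. Both genes can respond to tissue digestion. The 18 immediate early and digestion-associated genes listed for this reason summed to 20130 to 24660 CPM in veh-treated WT and 22140 to 28460 CPM in veh-treated *App* mice. Under vehicle 9 of them were higher and 2 lower, beside 20.1% and 16.9% of all genes. Under BRICHOS they summed to 21200 to 27990 CPM in WT and 24990 to 29100 CPM in *App* mice. There 3 were higher and 1 lower, beside 20.8% and 21.8% of all genes. Their part in the levels of *Ccl3* and *Ccl4* was not tested.

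**Figure D2:**
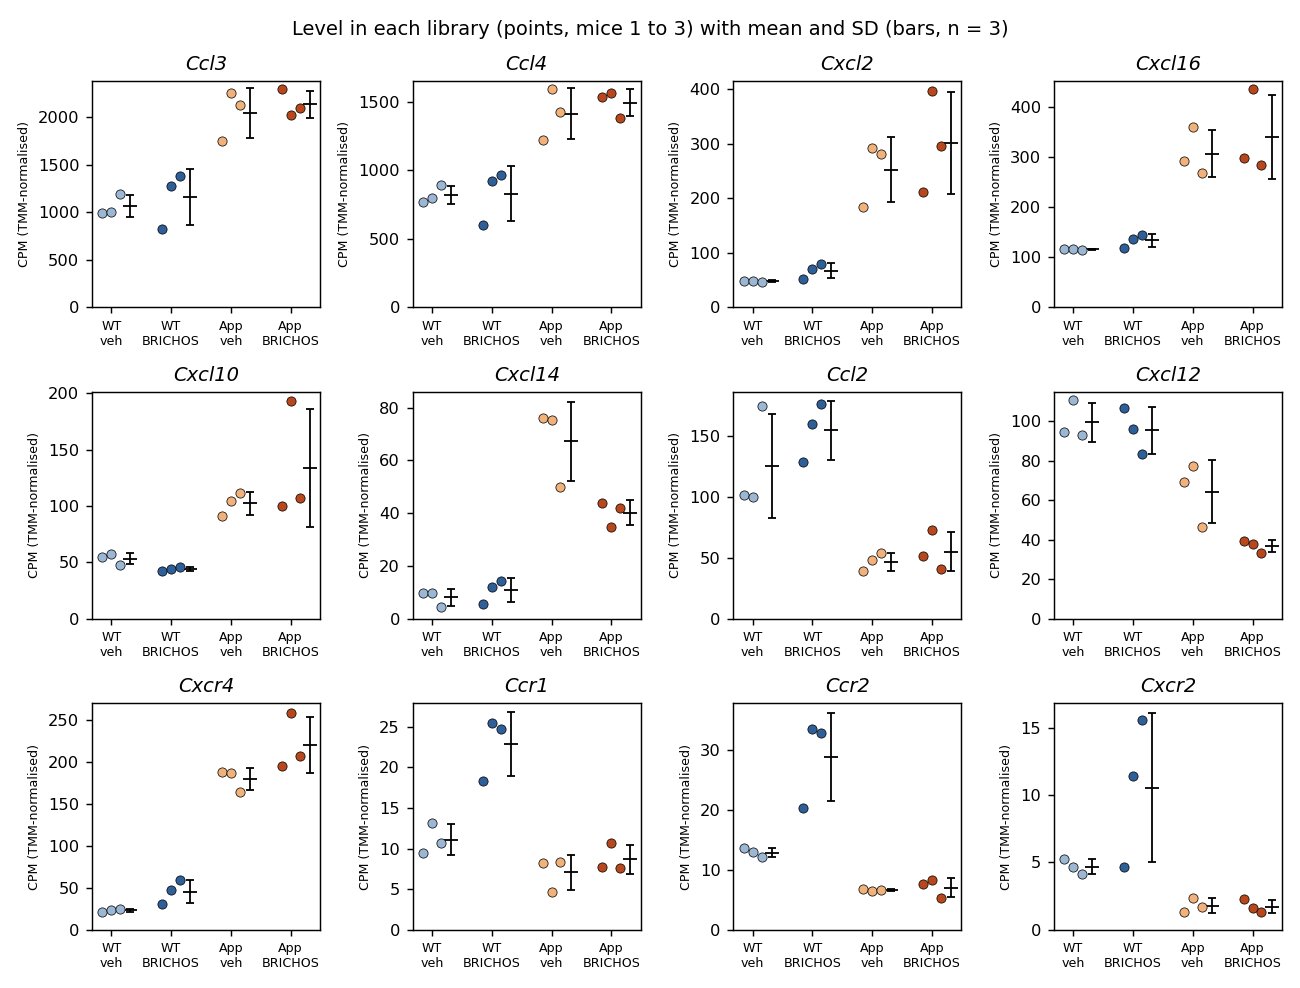
Level of 12 of the genes in CPM on linear axes from 0, with a point for each mouse and the mean and SD of 3 mice beside them. *Cxcr4*, *Cxcl2*, *Cxcl16* and *Cxcl14* are higher in all 6 *App* mice than in any WT mouse, and *Ccr2* and *Cxcr2* are highest in BRICHOS-treated WT mice 2 and 3.

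Of the 6 reported CXC ligands of the chromosome 5 cluster, 5 were higher in veh-treated *App* mice, beside 20.1% of all genes, and *Cxcl13* did not pass. Among the 5, *Cxcl5* had enough counts in *App* libraries only. *Cxcl1*, *Cxcl2* and *Cxcl5* are ligands of the neutrophil receptor Cxcr2, while *Cxcl9* and *Cxcl10* are interferon-inducible ligands of Cxcr3. The start of the promoters was searched for the motif of NF-kappaB, named kappaB, and the interferon-stimulated response element, named ISRE, on both strands, with overlapping matches taken as 1. Windows from 250 bases before to 50 bases after the start, from RefSeq on GRCm38.p6, were given for 24 of the 32 genes. A kappaB match was found in 7 of them (*Ccl27a*, *Ccl9*, *Ccr3*, *Ccr6*, *Cxcl1*, *Cxcl10* and *Cxcl2*), beside 4.51% of 32851 windows, and an ISRE match in 1 (*Cxcl10*), beside 0.371%. A gene was counted if any of its windows had a match, whereas the percentages are of single windows, so these are unlike measures. *Cxcl1*, *Cxcl2* and *Cxcl10* were the genes with a match that were higher in both strain comparisons. The parts of their promoters that hold the matches are shown here, with the matches in capitals. They run 5′ to 3′ on the strand of the gene and end before its RefSeq start. For *Cxcl1* (chr5:90891125-90891244, plus strand) and *Cxcl2* (chr5:90903779-90903898, plus strand) the capitals are a kappaB match, and both genes have the same letters there. For *Cxcl10* (chr5:92348960-92349119, minus strand) the first run of capitals is the ISRE match and the other runs are kappaB matches.
Cxcl1: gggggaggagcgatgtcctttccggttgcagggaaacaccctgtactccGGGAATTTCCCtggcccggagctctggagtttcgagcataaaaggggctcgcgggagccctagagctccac
Cxcl2: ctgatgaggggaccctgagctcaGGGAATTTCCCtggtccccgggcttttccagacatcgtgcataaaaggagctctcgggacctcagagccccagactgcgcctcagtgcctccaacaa
Cxcl10: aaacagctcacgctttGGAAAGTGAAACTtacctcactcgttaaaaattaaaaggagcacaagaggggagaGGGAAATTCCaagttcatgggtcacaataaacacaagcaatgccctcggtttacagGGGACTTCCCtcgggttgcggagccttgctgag
The match starts 71 bases before the RefSeq start of *Cxcl1* and 97 bases before that of *Cxcl2*. The gene positions given below are from the GENCODE annotation, where both genes start inside the stretches shown. The distances therefore hold for the RefSeq starts only. A match of letters is a description and shows no binding. Of the other kappaB matches, those of *Ccl9*, *Ccl27a* and *Ccr6* belonged to genes that were called in neither strain comparison, and that of *Ccr3* to a gene that was lower.

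*Cxcl2* (ENSMUSG00000058427, chr5:90903871-90905938) was at 48.8, 48.8 and 45.8 CPM in the veh-treated WT mice and at 185, 291 and 282 CPM in the veh-treated *App* mice. The lowest *App* value was far above the highest WT value. This was a 5.28-fold difference, with a log2 fold change of 2.40 ± 0.24 and an adjusted p of 1.52e-05. After BRICHOS the levels were 51.8, 70.7 and 80.5 CPM in WT and 212, 397 and 295 CPM in *App* mice (2.15 ± 0.24, adjusted p = 2.83e-05). By RPKM *Cxcl2* ranked 9 among the 32 genes in veh-treated WT and 4 in veh-treated *App* mice. *Cxcl1* (ENSMUSG00000029380, chr5:90891241-90893115), its close paralog, had a mean of 7.82 RPKM in veh-treated *App* mice, where *Cxcl2* had 122 RPKM. It was at 2.94, 3.26 and 3.5 CPM in veh-treated WT and 19.8, 10.2 and 13.9 CPM in veh-treated *App* mice. The groups did not overlap, and the spread among the *App* mice was wide. Its log2 fold change was 2.18 ± 0.40 (adjusted p = 0.00139), and under BRICHOS 1.42 ± 0.38 (adjusted p = 0.0106), from 4.79, 4.00 and 8.36 CPM in WT and 12.7, 9.02 and 24.6 CPM in *App* mice.

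*Cxcl5* (ENSMUSG00000029371, chr5:90759360-90761624) was close to the detection limit in WT mice, with 0.0685, 0.415 and 0.298 CPM under vehicle and 0.126, 0.169 and 0.0572 CPM under BRICHOS. In *App* mice it was at 7.64, 6.56 and 3.04 CPM under vehicle and 2.58, 1.15 and 1.59 CPM under BRICHOS. All 6 *App* values were above all 6 WT values. The counts behind the vehicle values were 1 to 7 per WT library and 41 to 118 per *App* library, a ratio of 21.9 with an exact 95% interval of 12.3 to 43.0 that covers counting error only, and the fitted log2 fold change was 4.40 ± 0.53 (adjusted p = 6.38e-05). Under BRICHOS the counts were 1 to 3 and 18 to 40, the ratio was 15.2 (6.67 to 42.6) and the log2 fold change 3.83 ± 0.63 (adjusted p = 0.00056).

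*Cxcl10* (ENSMUSG00000034855, chr5:92346638-92348889) was at 54.8, 57.7 and 47.5 CPM in veh-treated WT mice and 91.4, 104 and 112 CPM in veh-treated *App* mice, without overlap. The log2 fold change was 0.94 ± 0.20 (adjusted p = 0.00392). With BRICHOS the levels were 42.6, 44.0 and 45.4 CPM in WT and 100.4, 194 and 107 CPM in *App* mice, where mouse 2 stood above the others, and the difference was 1.60 ± 0.21 (adjusted p = 9.1e-05). *Cxcl9* was low in all groups, at 1.44, 2.43 and 1.12 CPM in veh-treated WT and 6.54, 4.07 and 6.67 CPM in veh-treated *App* mice and at 1.45, 3.04 and 3.43 and 4.84, 5.63 and 6.80 CPM under BRICHOS. The groups did not overlap in either comparison. It was higher in *App* mice by 1.77 ± 0.36 under vehicle (adjusted p = 0.0025) and 1.11 ± 0.34 under BRICHOS (adjusted p = 0.0206), where the call was lost without *App* mouse 3 or WT mouse 1 (adjusted p = 0.0678 and 0.0598). The 11 interferon-stimulated genes listed beside them, such as *Ifit3* and *Isg15*, summed to 114 to 141 CPM in veh-treated WT and 162 to 218 CPM in veh-treated *App* mice. Under BRICHOS they summed to 112.5 to 196.3 CPM in WT and 196.0 to 252.7 CPM in *App* mice, with overlap. *Isg15* was called in both comparisons and *Ifit3* in neither. Of the 11 genes, 3 were higher under vehicle and 5 under BRICHOS, beside 20.1% and 20.8% of all genes. *Cxcr3*, the receptor of both ligands, was at 2.52 CPM in veh-treated WT and 1.95 CPM in veh-treated *App* mice (-0.38 ± 0.28, adjusted p = 0.314). The B cell attractant *Cxcl13* was at 2.12, 1.07 and 1.27 CPM in veh-treated WT mice and 2.20, 2.30 and 8.97 CPM in veh-treated *App* mice, of which mouse 3 alone was clearly above the WT mice. Its difference did not pass the threshold under vehicle (1.58 ± 0.59, adjusted p = 0.0542) and passed it under BRICHOS (2.08 ± 0.56, adjusted p = 0.0115). The levels under BRICHOS were 1.39, 1.80 and 2.12 CPM in WT and 3.68, 7.87 and 11.03 CPM in *App* mice. The vehicle value rested on veh-treated *App* mouse 3, without which it was 0.60 (adjusted p = 0.343). It passed without veh-treated *App* mouse 1 or 2 or BRICHOS-treated *App* mouse 1 (adjusted p = 0.0339, 0.035 and 0.0412), with DESeq2's test (adjusted p = 0.016) and with no filter on low counts (adjusted p = 0.0248).

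*Cxcl16* (ENSMUSG00000018920, chr11:70453983-70459984), a scavenger receptor for oxidised lipids that is also released as a chemokine, was at 117, 116 and 115 CPM in veh-treated WT mice and at 293, 360.0 and 268 CPM in veh-treated *App* mice. The WT mice were almost equal and the *App* mice all far above them. The log2 fold change was 1.40 ± 0.16 (adjusted p = 3.2e-05) and, with levels of 119, 137 and 145 and 299, 436 and 283 CPM under BRICHOS, 1.34 ± 0.16 (adjusted p = 3.98e-05). *Cxcl14* (ENSMUSG00000021508, chr13:56288643-56296551), an orphan CXC ligand outside the cluster, was at 9.79, 9.79 and 4.47 CPM in veh-treated WT and 76.0, 75.5 and 50.1 CPM in veh-treated *App* mice. All *App* mice were higher, mice 1 and 2 most. The difference was 8.32-fold (3.06 ± 0.34, adjusted p = 3.17e-05), and under BRICHOS, at 5.67, 12.1 and 14.4 and 43.9, 34.8 and 41.9 CPM, 3.73-fold (1.90 ± 0.32, adjusted p = 0.000696). *App* mice 1 and 2 under vehicle were also the libraries with the highest astrocyte marker sums. All 7 astrocyte markers were higher in the vehicle comparison and 1 of the 7 in the BRICHOS comparison. Under BRICHOS their sums were 420 to 764 CPM in WT and 1864, 645 and 1226 CPM in *App* mice 1 to 3. The part of astrocyte RNA in *Cxcl14* was not tested.

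*Cxcl12* (ENSMUSG00000061353, chr6:117168535-117181367), the homeostatic ligand of Cxcr4 that vessel-associated cells produce, was the CXC ligand that was lower in *App* mice. It was at 94.3, 111 and 93.2 CPM in veh-treated WT and at 69.0, 77.1 and 46.4 CPM in veh-treated *App* mice. The highest *App* value was below the lowest WT value. The log2 fold change was -0.63 ± 0.16 (adjusted p = 0.00912). In the BRICHOS-treated mice it was -1.37 ± 0.16 (adjusted p = 5.21e-05), from 107, 96.1 and 83.1 CPM in WT and 39.5, 37.6 and 33.4 CPM in *App* mice. The 7 endothelial markers summed to 660 to 743 CPM in veh-treated WT mice, 562 to 802 CPM in BRICHOS-treated WT mice, 472 to 638 CPM in veh-treated and 387 to 443 CPM in BRICHOS-treated *App* mice, and the 8 mural and fibroblast markers to 144 to 166, 198 to 245, 86.5 to 136 and 57.2 to 94.4 CPM in the same order. Their part in the lower *Cxcl12* was not tested.

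Among the CC ligands, *Ccl2* (ENSMUSG00000035385, chr11:82035571-82037453), the main attractant of monocytes through Ccr2, went the opposite way to *Ccl3* and *Ccl4*. Its level was 102, 99.9 and 175 CPM in veh-treated WT mice and 39.0, 47.9 and 53.6 CPM in veh-treated *App* mice. No *App* mouse reached the lowest WT mouse. The difference was -1.42 ± 0.25 (adjusted p = 0.000989) and, at 129, 159.8 and 176 and 51.6, 72.7 and 41.0 CPM under BRICHOS, -1.49 ± 0.25 (adjusted p = 0.000587). By RPKM its rank went from 4 in veh-treated WT to 8 in veh-treated *App* mice. *Ccl7* (ENSMUSG00000035373, chr11:82045712-82047525), its neighbour and another Ccr2 ligand, was at 18.1, 15.8 and 22.1 CPM in veh-treated WT and 10.0, 9.58 and 9.48 CPM in veh-treated *App* mice (-0.94 ± 0.21, adjusted p = 0.00447). With BRICHOS it was at 29.5, 42.0 and 26.4 and 14.0, 13.3 and 8.69 CPM (-1.44 ± 0.21, adjusted p = 0.000191). *Ccl24* (ENSMUSG00000004814, chr5:135569937-135573049), a ligand of Ccr3 that attracts eosinophils, was at 14.0, 12.5 and 17.5 CPM in veh-treated WT and 6.61, 6.17 and 6.52 CPM in veh-treated *App* mice. These groups were separated by a wide gap, with a log2 fold change of -1.19 ± 0.19 (adjusted p = 0.000492), and under BRICHOS the levels were 16.9, 24.3 and 16.0 and 8.78, 7.17 and 6.42 CPM (-1.35 ± 0.19, adjusted p = 0.000144). The 6 border macrophage markers, among them *Mrc1*, *Cd163* and *Lyve1*, summed to 390 to 458 CPM in veh-treated WT, 513 to 627 CPM in BRICHOS-treated WT, 168 to 230 CPM in veh-treated and 167 to 224 CPM in BRICHOS-treated *App* mice, and 5 of the 6 were lower in each strain comparison. Whether they account for the lower CC ligands was not tested.

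The other 7 CC ligands were not called under vehicle. *Ccl12* (ENSMUSG00000035352, chr11:82101845-82103400), a Ccr2 ligand of mice that is closely related to *Ccl2*, was at 65.8, 55.3 and 69.4 CPM in veh-treated WT and 62.2, 68.1 and 88.8 CPM in veh-treated *App* mice, and at 74.8, 86.5 and 102 and 74.2, 82.5 and 66.5 CPM under BRICHOS. The groups overlapped, and the 95% interval of its log2 fold change was -0.12 to 0.53 under vehicle and -0.56 to 0.09 under BRICHOS. *Ccl5* (ENSMUSG00000035042, chr11:83525778-83530518), a ligand of Ccr1 typical of T cells, was at 6.85, 3.20 and 4.25 CPM in veh-treated WT and 4.34, 4.99 and 5.71 CPM in veh-treated *App* mice (0.07 ± 0.27, adjusted p = 0.848). Under BRICHOS it was at 3.72, 3.10 and 4.98 and 3.94, 4.73 and 4.15 CPM (0.12 ± 0.27, adjusted p = 0.746), while the 8 T and NK cell markers summed to 2.01 to 8.47 CPM over all libraries. *Ccl9* was among the abundant ones, with group means of 89.3, 95.3, 84.2 and 106 CPM in veh- and BRICHOS-treated WT and veh- and BRICHOS-treated *App* mice, and an interval of -0.31 to 0.14 for the vehicle comparison. *Ccl22*, *Ccl25* and *Ccl27a* had group means between 1.51 and 5.52 CPM and passed the test in neither strain comparison. The log2 fold change of *Ccl22* under BRICHOS was -0.76 ± 0.35, with an interval of -1.53 to 0.02. *Ccl8* did not pass under vehicle (-0.29 ± 0.37, adjusted p = 0.569) and was lower under BRICHOS (-1.05 ± 0.36, adjusted p = 0.0352), where WT mouse 2 was highest. Its call was lost without BRICHOS-treated *App* mouse 2 or 3 or WT mouse 2 (adjusted p = 0.0501, 0.12 and 0.174).

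By RPKM the highest of the receptor genes described here was *Cxcr4* in both strains, at 12.7 RPKM in veh-treated WT mice and 99.4 RPKM in veh-treated *App* mice, beside 3.92 and 2.49 RPKM for *Ccr1*, the next in both. *Cxcr4* (ENSMUSG00000045382, chr1:128588199-128592293), the receptor of Cxcl12, went from 20.9, 23.8 and 24.1 CPM in veh-treated WT to 188, 187 and 165 CPM in veh-treated *App* mice. The difference was 7.83-fold, without overlap (2.97 ± 0.20, adjusted p = 5.24e-07). Under BRICHOS it was at 30.8, 46.8 and 58.8 CPM in WT and 195, 258 and 207 CPM in *App* mice (2.27 ± 0.19, adjusted p = 2.91e-06). Of all counts on the 11 receptor genes, *Cxcr4* took 31.5% to 34.7% in veh-treated WT and 84.8% to 88.4% in veh-treated *App* mice.

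*Ccr2* (ENSMUSG00000049103, chr9:124101950-124113557), the receptor of Ccl2 and a defining gene of inflammatory monocytes, was at 13.6, 12.99 and 12.1 CPM in veh-treated WT and 6.73, 6.43 and 6.59 CPM in veh-treated *App* mice. Both groups were tight and apart (-0.97 ± 0.20, adjusted p = 0.00304). Under BRICHOS it was at 20.3, 33.4 and 32.7 CPM in WT and 7.55, 8.25 and 5.21 CPM in *App* mice (-2.03 ± 0.20, adjusted p = 1.09e-05). *Ccr1* (ENSMUSG00000025804, chr9:123962124-123968692), a receptor of Ccl3, Ccl5 and Ccl9 on monocytes and neutrophils, was at 9.45, 13.2 and 10.7 CPM in veh-treated WT and 8.22, 4.59 and 8.37 CPM in veh-treated *App* mice. The lowest WT and the highest *App* value were close, and the call was marginal (-0.66 ± 0.24, adjusted p = 0.0488), whereas under BRICHOS, at 18.3, 25.5 and 24.7 and 7.75, 10.8 and 7.55 CPM, the gap was wide (-1.39 ± 0.23, adjusted p = 0.000575). The 6 monocyte markers, of which *Ccr2* is 1, summed to 169 to 193 CPM in veh-treated WT, 232 to 271 CPM in BRICHOS-treated WT, 132 to 145 CPM in veh-treated and 101 to 134 CPM in BRICHOS-treated *App* mice. Most of each sum was *Fn1*, at 142 to 151 CPM in veh-treated WT and 109 to 130 CPM in veh-treated *App* mice. Under vehicle 3 of the 6 markers were lower and 2 had a positive log2 fold change. Under BRICHOS 5 were lower and 1 had a positive value, and *Ccr2* was among the lower ones in both comparisons. Their part in the lower *Ccr1* and *Ccr2* was not tested. The vehicle call of *Ccr1* was lost when veh-treated *App* mouse 1 or 2, veh-treated WT mouse 2 or 3, or BRICHOS-treated *App* mouse 1 or 3 or WT mouse 2 or 3 was left out, with adjusted p-values between 0.0562 and 0.167.

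*Ccr3* (ENSMUSG00000035448, chr9:124021972-124031689), the eotaxin receptor, was low throughout, at 2.05, 1.96 and 1.42 CPM in veh-treated WT and 0.259, 0.591 and 0.370 CPM in veh-treated *App* mice. Its counts were 19 to 33 per WT and 4 to 9 per *App* library, so that the level in WT mice was 4.49 times higher (2.67 to 7.94), and the log2 fold change was -2.13 ± 0.35 (adjusted p = 0.000554). Under BRICHOS it was at 1.95, 1.58 and 1.26 and 0.258, 0.256 and 0.378 CPM (-2.40 ± 0.36, adjusted p = 0.000291). *Ccr1l1* (ENSMUSG00000064039, chr9:123977243-123978408), a paralog of *Ccr1*, was at 1.44, 1.72 and 1.79 CPM in veh-treated WT and 0.259, 0.131 and 0.0741 CPM in veh-treated *App* mice, near the detection limit. On counts of 21 to 29 and 1 to 4 the WT level was 10.4 times higher (4.81 to 26.8), with a fitted log2 fold change of -3.32 ± 0.39 (adjusted p = 4.47e-05), and under BRICHOS it was at 1.57, 1.52 and 2.06 and 0.323, 0.384 and 0.227 CPM (-2.42 ± 0.34, adjusted p = 0.000173). *Ccr6* (ENSMUSG00000040899, chr17:8236043-8257141), the receptor of Ccl20, was at 1.85, 1.36 and 1.79 CPM in veh-treated WT and 1.62, 1.77 and 1.93 CPM in veh-treated *App* mice, with overlap (0.09 ± 0.23, adjusted p = 0.778), and at 2.08, 2.08 and 1.60 and 1.68, 1.92 and 1.36 CPM under BRICHOS (-0.21 ± 0.23, adjusted p = 0.478). *Ccr7*, a receptor of migrating dendritic cells and lymphocytes, was spread widely within groups, from 5 to 26 counts in veh-treated WT and 7 to 33 counts in veh-treated *App* mice, and was called in no comparison.

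*Cxcr2* (ENSMUSG00000026180, chr1:74153989-74161246), the receptor of Cxcl1, Cxcl2 and Cxcl5 and a gene of neutrophils, was at 5.27, 4.68 and 4.10 CPM in veh-treated WT and 1.29, 2.36 and 1.70 CPM in veh-treated *App* mice, without overlap (-1.39 ± 0.41, adjusted p = 0.02). Its level in BRICHOS-treated mice was 4.66, 11.4 and 15.6 CPM in WT, where mice 2 and 3 stood above mouse 1, and 2.26, 1.60 and 1.28 CPM in *App* mice (-2.61 ± 0.40, adjusted p = 0.00034). The neutrophil marker sums of the same WT mice, given above, were 439, 353 and 35.5 CPM under vehicle and 69.3, 255 and 409 CPM under BRICHOS. The 7 neutrophil markers were all lower in *App* mice under vehicle and 5 of 7 under BRICHOS, and their part in the lower *Cxcr2* was not tested. The vehicle call of *Cxcr2* was lost without veh-treated *App* mouse 1 or 3 or veh-treated WT mouse 1 (adjusted p = 0.0769, 0.0528 and 0.0571). Of the atypical receptors, *Ackr3* (ENSMUSG00000044337, chr1:90203980-90216751), which scavenges Cxcl12, was at 8.22, 9.43 and 10.4 CPM in veh-treated WT and 5.63, 5.32 and 6.96 CPM in veh-treated *App* mice. Each *App* mouse was below each WT mouse (-0.65 ± 0.15, adjusted p = 0.00538), as under BRICHOS, with 12.3, 10.6 and 10.1 and 5.94, 5.44 and 4.91 CPM (-1.01 ± 0.15, adjusted p = 0.000227). *Ackr4* was the lowest of the 32 genes by RPKM, with 0 to 6 counts per veh-treated library, and was called only under BRICHOS, on 10 to 18 counts per WT and 0 to 4 per *App* library, where the WT level was 8.46 times higher (3.05 to 32.6). The 3 BRICHOS-treated WT libraries were the only ones with 10 counts, so *Ackr4* was included through the group in which it was high. Its call was lost without BRICHOS-treated *App* mouse 1 or 2 or WT mouse 2 (adjusted p = 0.0882, 0.0964 and 0.0863).

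The comparison between the BRICHOS-treated strains was of other mice than the vehicle comparison, but both were taken from the fit over all 12 libraries and share its estimate of the spread. In it 23 of the 32 genes were called, or 71.9%, beside 42.5% of all genes, with 11 higher (20.8% of all genes) and 12 lower (21.8% of all genes). All 20 genes called under vehicle were called again in the same direction, as were 72.0% of the 5710 genes called under vehicle among all genes tested. They were 62.5% of the 32 genes, and 26.6% of all genes were called in both in 1 direction. The additional calls were *Cxcl13*, *Ackr4* and *Ccl8*. Without the 4 genes that reached 10 counts in 1 strain only, 10 were higher and 9 lower of 28. In neither comparison were 9 genes called, namely *Ccl5*, *Ccl9*, *Ccl12*, *Ccl22*, *Ccl25*, *Ccl27a*, *Ccr6*, *Ccr7* and *Cxcr3*. Of the 32 genes, 26 had the same sign in both, as did 78.7% of all genes.

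**Figure D3:**
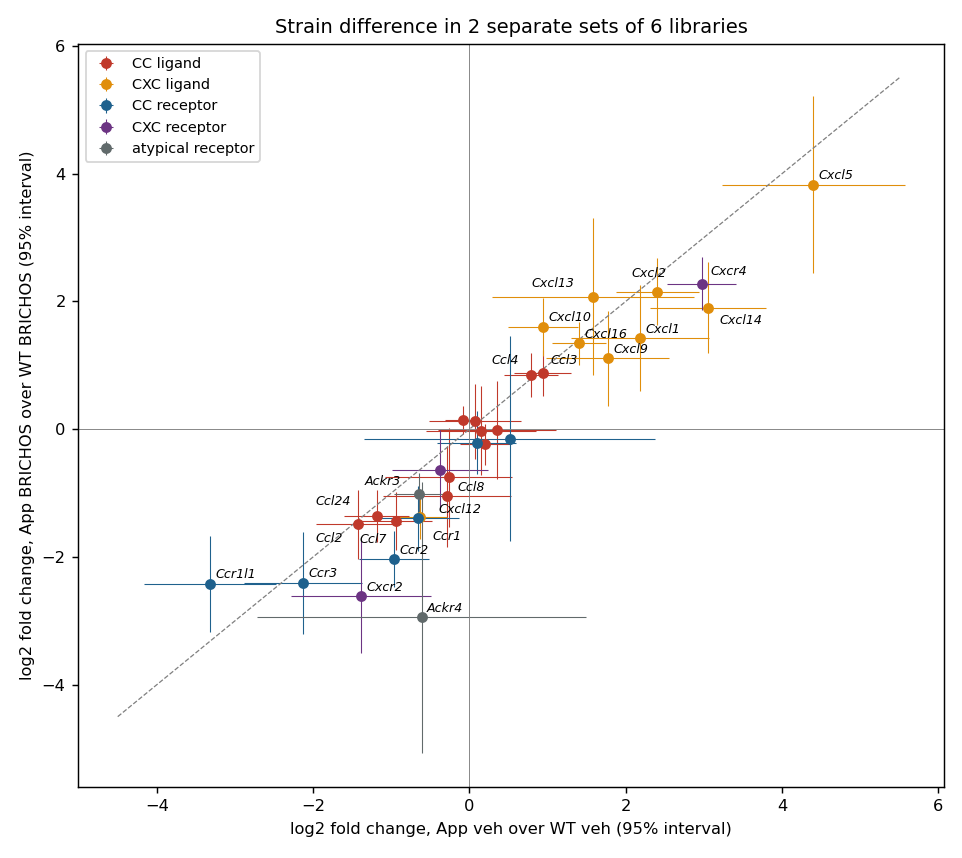
Log2 fold change of *App* over WT mice for the 32 genes, under vehicle (horizontal axis) and under rh Bri2 BRICHOS R221E (vertical axis), with 95% intervals, a colour for each class and a dashed line of equality. The 23 named genes are those called in at least 1 of the comparisons, and all 20 called in both lie in the lower left or upper right part.

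Of the chromosomal clusters of the family, 3 were chosen to be described here, and at 2 of them the called genes shared a direction. The CC receptor cluster of chromosome 9 (chr9:123678439-124113557, GRCm38) holds 6 of the genes described here in 435 kb, of which *Ccr1*, *Ccr1l1*, *Ccr3* and *Ccr2* had enough counts. All 4 were lower in *App* mice under vehicle and under BRICHOS, beside 16.9% and 21.8% of all genes. However, *Ccr1l1* and *Ccr3* had enough counts in WT libraries only and were not tested when 10 counts were required in every library. The CXC ligand cluster (chr5:90759360-95961068) was taken as a span of 5202 kb, with wide gaps between *Cxcl2* and *Cxcl9* and between *Cxcl10* and *Cxcl13*. It holds 6 reported genes, of which 5 were higher under vehicle and 6 under BRICHOS, beside 20.1% and 20.8% of all genes. Of these, *Cxcl5* had enough counts in *App* libraries only and was not tested when 10 counts were required in every library. The CC ligand cluster (chr11:82035571-83664683) was divided. Of its 8 reported genes *Ccl2* and *Ccl7* at one end were lower, *Ccl3* and *Ccl4* at the other end were higher, and of those between them *Ccl12*, *Ccl5* and *Ccl9* were called in neither comparison and *Ccl8* was lower under BRICHOS.

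**Figure D4:**
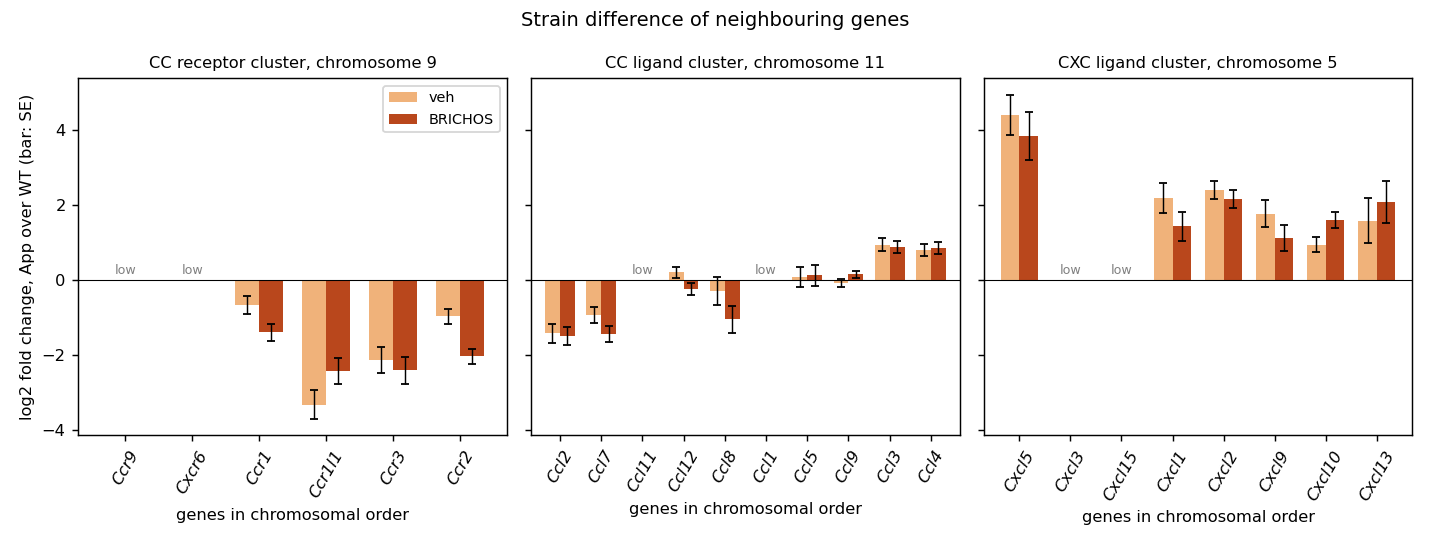
Log2 fold change of *App* over WT mice, with SE, for the genes of 3 chromosomal clusters in their order along the chromosome, under vehicle and under rh Bri2 BRICHOS R221E. Genes below the count minimum are marked as low, the 4 reported genes of the CC receptor cluster are all below 0, and the CC ligand cluster goes from negative values at *Ccl2* to positive values at *Ccl3* and *Ccl4*.

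The comparison of rh Bri2 BRICHOS R221E- with veh-treated *App* mice asked whether the treatment changed these genes in the presence of amyloid. Of the 32 genes 0 were called by edgeR, beside 0.00648% of all genes, which was 1 gene, and DESeq2 called 1, *Cxcl12*, beside 0.899% of all genes with a DESeq2 adjusted p. At an unadjusted p-value under 0.05 there were 4, beside 10.8% of all genes. *Cxcl12*, given above in every library, was lower in all 3 BRICHOS-treated mice than in any veh-treated *App* mouse, with a log2 difference of -0.80 ± 0.16, which did not pass in edgeR (adjusted p = 0.212) and passed in DESeq2 (adjusted p = 0.00221). *Cxcl5* was also without overlap, at -1.69 ± 0.42 (adjusted p = 0.291), and *Cxcl14* at -0.74 ± 0.30 (adjusted p = 0.404). The levels of 5 of the 32 genes did not overlap between these groups, nor did those of 2076 of the 15425 genes. *Ccl9* differed by 0.33 ± 0.10 (adjusted p = 0.294), with 79.4, 86.4 and 86.7 CPM under vehicle and 115, 109 and 93.0 CPM under BRICHOS. The 7 astrocyte and 7 endothelial markers had median log2 differences of -1.42 and -0.65 in the same comparison, and their part in these values of the CXC ligands was not tested. Without veh-treated *App* mouse 3, *Cxcl12* and *Cxcl5* were called (adjusted p = 0.0168 and 0.0395), beside 162 of the 15907 genes tested in that fit. Of the 5 genes with the highest mean level over all libraries, the 95% intervals were -0.30 to 0.43 for *Ccl3*, -0.27 to 0.42 for *Ccl4*, -0.19 to 0.48 for *Cxcl16*, -0.24 to 0.75 for *Cxcl2* and -0.10 to 0.69 for *Cxcr4*.

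In WT mice 0 of the 32 genes were called by edgeR after BRICHOS, as were 0.0% of all genes, while DESeq2 called 4, *Ccl7*, *Ccr1*, *Ccr2* and *Cxcr4*, beside 0.545% of all genes. At an unadjusted p-value under 0.05 there were 8 genes, all with higher values under BRICHOS, beside 11.4% of all genes. They were *Ccr2* (1.16 ± 0.19, adjusted p = 0.133), *Cxcr4* (0.99 ± 0.19, 0.19), *Ccr1* (1.04 ± 0.23, 0.214), *Ccl7* (0.81 ± 0.20, 0.239), *Cxcr2* (1.17 ± 0.37, 0.281), *Ccl12* (0.47 ± 0.15, 0.283), *Ccl8* (0.84 ± 0.36, 0.407) and *Ccl22* (0.80 ± 0.36, 0.428), each with its adjusted p. The levels of 12 of the 32 genes did not overlap between these groups, nor did those of 2707 of the 15425 genes. Of the 8 genes above, *Ccr2*, *Cxcr4*, *Ccr1*, *Ccl7*, *Ccl12* and *Ccl22* were among the 12. *Cxcl10* was also among them, with lower values under BRICHOS. Mouse 1 was the lowest of the BRICHOS-treated mice in *Ccr2*, *Cxcr4* and *Ccr1*. The median log2 difference over the 32 genes was 0.28, and 26 of them had a positive sign, beside a median of -0.00363 over all genes. Border macrophage, monocyte and mural marker sums, given above, were above those of every veh-treated WT mouse in all 3 treated mice, where the monocyte sum contains *Ccr2* itself and is mostly *Fn1* (142 to 151 CPM in veh-treated and 171 to 209 CPM in BRICHOS-treated WT mice). The choroid plexus and ependyma markers summed to 895, 849 and 3865 CPM in veh-treated and 3206, 3951 and 6693 CPM in BRICHOS-treated WT mice, with a median log2 difference of 1.28 over the 6 markers. The part of these cells in the values above was not tested. Without BRICHOS-treated WT mouse 1, *Ccr2* and *Cxcr4* were called (adjusted p = 0.019 for each), beside 5 of the 15809 genes tested in that fit.

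The difference of the treatment effect between the strains was called for 0 of the 32 genes by edgeR, beside 0.00648% of all genes, which was again 1 gene, and for 1 by DESeq2, *Ccr2*, beside 1.48% of all genes. At an unadjusted p-value under 0.05 there were 6 (*Ccr1*, *Ccr2*, *Cxcl10*, *Cxcl12*, *Cxcl14* and *Cxcr4*), beside 14.8% of all genes. For *Ccr2* the treatment effect in *App* mice was 0.09 ± 0.21 and in WT mice 1.16 ± 0.19, a difference of -1.07 ± 0.28 (adjusted p = 0.168 in edgeR and 0.0464 in DESeq2). For *Cxcl12* the effects were -0.80 ± 0.16 and -0.06 ± 0.16, a difference of -0.74 ± 0.23 (adjusted p = 0.209, and 0.0462 without veh-treated *App* mouse 3). In the fit without that mouse, 88 of 15907 genes were called for the difference of the treatment effects. With 3 mice in each group, the p-values set a difference of group means against a spread between mice that was estimated over all groups.

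**Figure D5:**
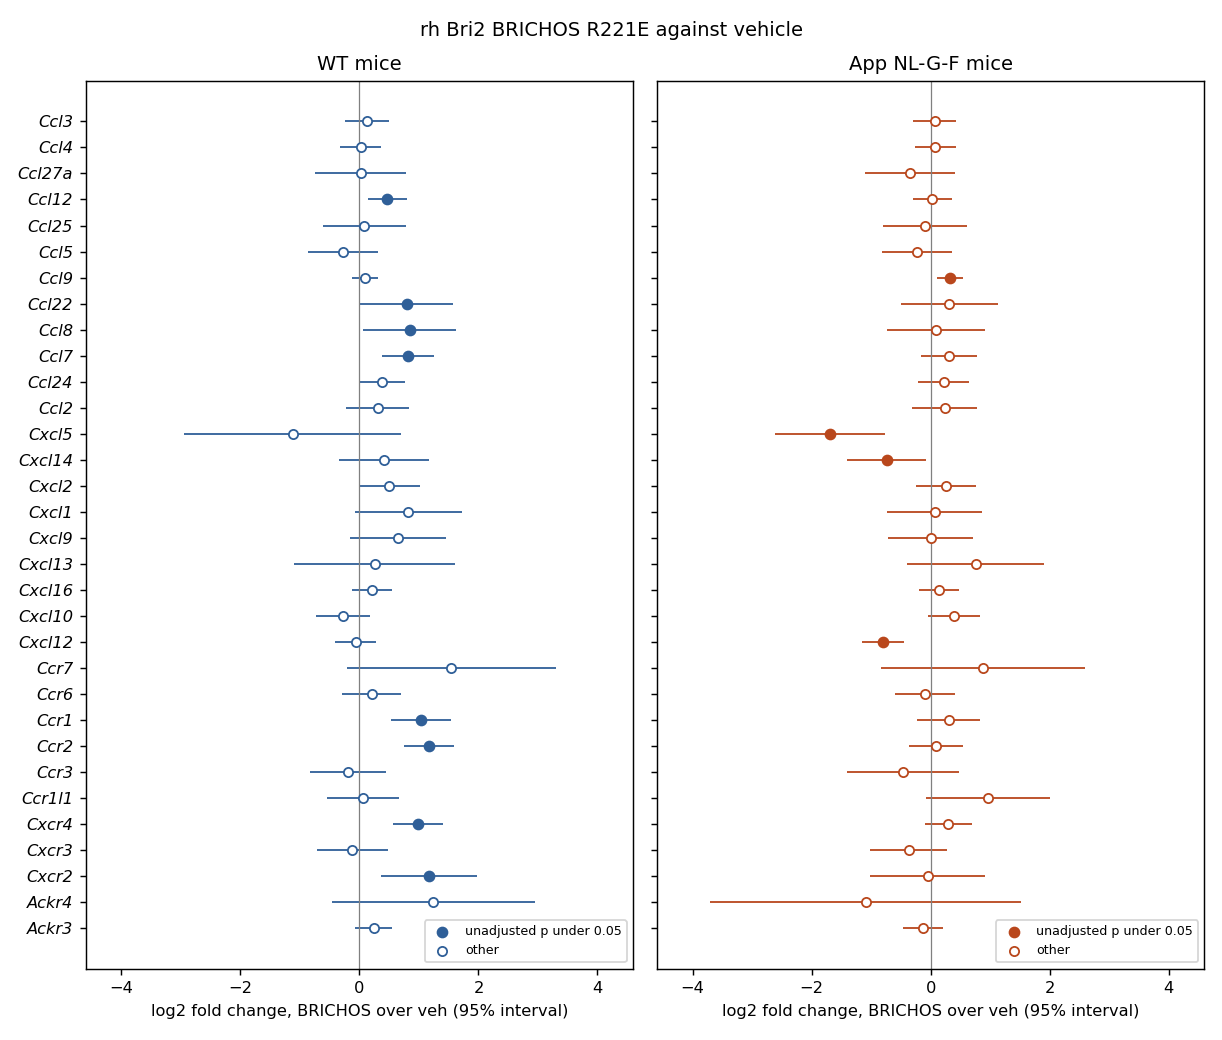
Log2 fold change of rh Bri2 BRICHOS R221E- over veh-treated mice for the 32 genes, with 95% intervals, in WT mice (left) and *App* mice (right), where filled points have an unadjusted p-value under 0.05. The 8 filled points in WT mice all lie above 0, and the 4 in *App* mice are *Ccl9* above and *Cxcl5*, *Cxcl14* and *Cxcl12* below 0.

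Of the other genes of the chemokine system, a list of 40 ligands, receptors, G protein subunits, effectors and desensitising proteins, 35 were tested. In veh-treated *App* compared with WT mice 1 was higher and 17 were lower, beside 20.1% and 16.9% of all genes. Under BRICHOS 4 were higher and 18 lower, beside 20.8% and 21.8% of all genes. For the treatment their median log2 difference was 0.06 in *App* and -0.04 in WT mice. *Ccrl2*, an atypical receptor that binds chemerin, was higher under vehicle, at 1034 ± 97.0 against 433 ± 20.2 CPM (SD, n = 3), with a log2 fold change of 1.25 ± 0.16. *Cx3cr1*, the fractalkine receptor by which microglia are recognised, was lower, at 3468 ± 138 against 4692 ± 241 CPM (-0.44 ± 0.06, adjusted p = 0.000273). Its ligand *Cx3cl1* was also lower (-1.07 ± 0.16, adjusted p = 0.00031), in cells where the 7 neuron markers summed to 18.7 to 23.8 CPM in veh-treated WT and 6.99 to 8.86 CPM in veh-treated *App* mice, and their part in it was not tested. *Elmo1*, which links chemokine receptors to Rac, was lower (-0.95 ± 0.05, adjusted p = 5.86e-08).

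Some of these genes share sequence or position with others. *Cxcl10*, *Cxcl16*, *Ccl25*, *Ccl27a* and *Ackr4* have exons that overlap those of a gene on the opposite strand (*Art3*, *Zmynd15*, *Elavl1*, *Il11ra1* and *Acad11*), and the strand setting of the counting was not given in the sources used here, so that reads of the pairs may not be told apart. The partner of *Cxcl10* had a mean of 3.74 CPM in veh-treated WT and 2.74 CPM in veh-treated *App* mice and that of *Cxcl16* 9.19 and 14.1 CPM, well below these ligands, whereas those of *Ccl25*, *Ccl27a* and *Ackr4* had 16.8 to 66.6 CPM in veh-treated WT mice and were above them. Close paralogs (*Ccl3* and *Ccl4*, *Ccl2* and *Ccl12*, *Cxcl1* and *Cxcl2*, *Ccr1* and *Ccr1l1*) may share reads, and how such reads were counted was not given.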

How the data were processed

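The authors aligned the trimmed reads to GRCm38 with STAR, counted them per gene with featureCounts and deposited raw counts without normalization. Per the labels the libraries were made with a stranded mRNA kit, and the submitters' processing notes name FastQC 0.11.8, STAR 2.6.1d, featureCounts 1.5.1 and DESeq2. Groups were taken from the library names. Symbols, positions and exonic lengths were taken from the GENCODE M21 annotation of GRCm38. The number of libraries per group was 3, and no column was left unmapped.

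Genes were kept by filterByExpr of edgeR 4.0.16 (minimum count 10, R 4.3.3), which left 15425. After TMM scaling, edgeR's quasi-likelihood model with 4 group means was fitted to all libraries, and 5 comparisons were tested by glmQLFTest. All adjusted p-values not credited to DESeq2 are those of this edgeR test with Benjamini-Hochberg adjustment over all tested genes. The SE is the log2 fold change divided by the square root of its F statistic, and its interval uses the t distribution. Intervals of count ratios are exact and cover counting error only. Every reported member is named. Values in every library are given for the 20 called members with the lowest p and for a fixed list of 12 ligands and receptors. They are also given for *Cxcl13* and, in *App* mice only, for *Ccl9*. Both genes were added after their values were seen. The members, the marker lists and the pathway lists were chosen with earlier results of these data known. 2 members of the family and 2 genes of the marker and context lists are not reported here.

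Alternatives were DESeq2's size factors, its Wald test (version 1.42.0), a fit of the compared groups only, no filter or a stricter filter on low counts, the replicate number as a block, the omission of each library in turn and the omission of libraries with high astrocyte or neutrophil markers. Each mouse is a separate sample. Within groups, the counts of libraries differed by more than sampling noise, at chi-square values of 5.81 to 34.1 per degree of freedom. The test was also run on simulated counts with known changes, and no result given here rests on that run. Figures were drawn with matplotlib 3.10.9.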

Additional observations from a re-analysis of the deposited data

How the results depend on the processing

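Between the strains no called gene changed its sign under any alternative. Leaving out 1 library gave 10 to 11 higher and 8 to 10 lower genes under vehicle, 10 to 11 higher and 10 to 13 lower genes under BRICHOS. Among all genes tested, 4449 to 5981 were then called under vehicle and 5461 to 6693 under BRICHOS. In BRICHOS- against veh-treated *App* mice the number of lower genes was 1 with DESeq2's test or with no filter on low counts (*Cxcl12* in both) and 0 to 2 when 1 library was left out. Among all genes, 125 of 13900 were called with DESeq2's test, 25 of 29173 with no filter and 0 to 162 without 1 library. In WT mice the number of higher genes was 4 with DESeq2's test, 2 with no filter (*Ccr2* and *Cxcr4*) and 0 to 2 when 1 library was left out. There, 85 of 15597 genes were called with DESeq2's test, 12 of 29173 with no filter and 0 to 5 without 1 library. The difference of the treatment effects gave 1 lower gene with DESeq2's test (*Ccr2*) and 0 to 1 when 1 library was left out. For it 240 of 16162 genes were called with DESeq2's test and 0 to 88 genes without 1 library. With a minimum of 10 counts in every library 27 of the 32 genes remained to be tested. The cause of these shifts was not tested.

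The omissions by marker level were chosen after seeing the data. Without veh-treated *App* mice 1 and 2, 4 genes were lower under vehicle, with *Ackr3*, *Ccl2*, *Ccl7*, *Ccr1*, *Ccr2* and *Cxcr2* no longer called at log2 fold changes of -0.41, -1.22, -0.96, -0.40, -0.96 and -1.45. Without veh-treated WT mice 1 and 2 and BRICHOS-treated WT mice 2 and 3, it was 5, and *Ccr1*, *Ccr2*, *Ccr3*, *Cxcl12* and *Cxcr2* were lost at -0.61, -0.88, -1.78, -0.54 and -1.20, as were the higher *Cxcl1* and *Cxcl10* at 2.06 and 1.10. Each omission left a lone library, which was assumed to vary like the other groups. Equally numbered libraries come from different mice, and the correlations of their deviations were between -0.0148 and 0.227, so the numbers were not taken as pairs. With the replicate block 10 genes were higher and 9 lower under vehicle (*Ccr1* was lost), 11 higher and 12 lower under BRICHOS, and 0 were called for the treatment.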

Other observations

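Among the members below the count minimum, *Ackr1* and *Ccl17* had their highest counts in BRICHOS-treated WT mice. Not all followed this, as the highest count of *Ccr9*, 6, was in veh-treated *App* mouse 1. *Ackr1*, the atypical receptor of red cells and venous endothelium, had 41 counts in BRICHOS-treated WT mouse 3, and *Ccl17*, a ligand of Ccr4 made by dendritic cells, had 31 and 22 counts in BRICHOS-treated WT mice 2 and 3, with fewer than 10 in each of the other libraries. The 6 choroid plexus and ependyma markers summed to 3951 and 6693 CPM in BRICHOS-treated WT mice 2 and 3, but also to 3865 CPM in veh-treated WT mouse 3, where *Ackr1* had 2 counts. The 6 dendritic cell markers summed to 77.2 and 70.4 CPM in BRICHOS-treated WT mice 2 and 3 and to 74.8 CPM in mouse 1, where *Ccl17* had 5 counts. Their part in these counts was not tested.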
